A study of Mus musculus with 6 samples.

Results

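The genes described here are 10 imprinted genes, of 17144 genes measured on Affymetrix mouse expression arrays in ESCs and in NPCs. They are Igf2, Igf2r, Grb10, H19, Meg3, Dlk1, Plagl1, Peg3, Mest and Nap1l5, and all 10 had a row in the deposited table. They were chosen by name as imprinted genes with their NPC and ESC values on these arrays already in view, among them the high value of Nap1l5 in a single NPC array. Their differences between the cell types are therefore given as a description. Where a gene is said to be called, this is its place in a limma fit over all genes, given without its p, and it is not independent evidence for genes chosen in this way. The ESCs were wild type V6.5 cells, a blastocyst derived line of 129SvJae/C57B6 F1 background, grown with serum and LIF. The NPCs were wild type cells of the same background, derived in vitro from these ESCs and kept in N3 medium with bFGF and EGF. Each cell type had 3 biological replicates with 1 array each, named ES1, ES2 and ES3 in ESCs and NP106, NP107 and NP39 in NPCs, and what the numbers in the NPC names stand for is not given in the sources used here. Both cell types come from a single line. Expression is given on a log2 scale after RMA, a method that summarizes the probes of a gene into 1 relative value per array, so that a gene is compared with itself between arrays and not with another gene.

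Imprinted genes are transcribed mainly from the copy inherited from 1 parent. The choice is set by DNA methylation laid down in the egg or the sperm at control regions, which often serve several neighbouring genes. Many imprinted genes act on growth of the embryo and placenta or on the developing brain, and their methylation is known to be prone to change when ESCs are cultured. The arrays sum the RNA of both copies and do not tell them apart.

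Between ESCs and NPCs the imprinted genes did not move as a block. By the means of 3 arrays, H19, Grb10 and Meg3 were lower in NPCs by between 4.65-fold and 8.24-fold, Igf2 was lower by 1.81-fold, and Peg3 was higher by 2.12-fold. For each of these genes the arrays of the cell types did not overlap. Dlk1 and Plagl1 lay low on the scale in both cell types. Mest and Nap1l5 split the NPC arrays: Mest was high in NP106 and NP107 and low in NP39, and Nap1l5 was low in NP106 and NP107 and high in NP39. By limma over all genes (adjusted p under 0.05 after Benjamini-Hochberg adjustment and a difference over 1.5-fold), 4 of the 10 genes were called lower in NPCs and 1 was called higher. Among all 17144 genes 18.7% were called lower and 15.4% higher, 34.1% in all. Since the genes were chosen with this contrast known, nothing is read from that count. The median difference of the 10 genes was -0.18 on the log2 scale, against -0.04 for all genes.

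**Figure D1:**
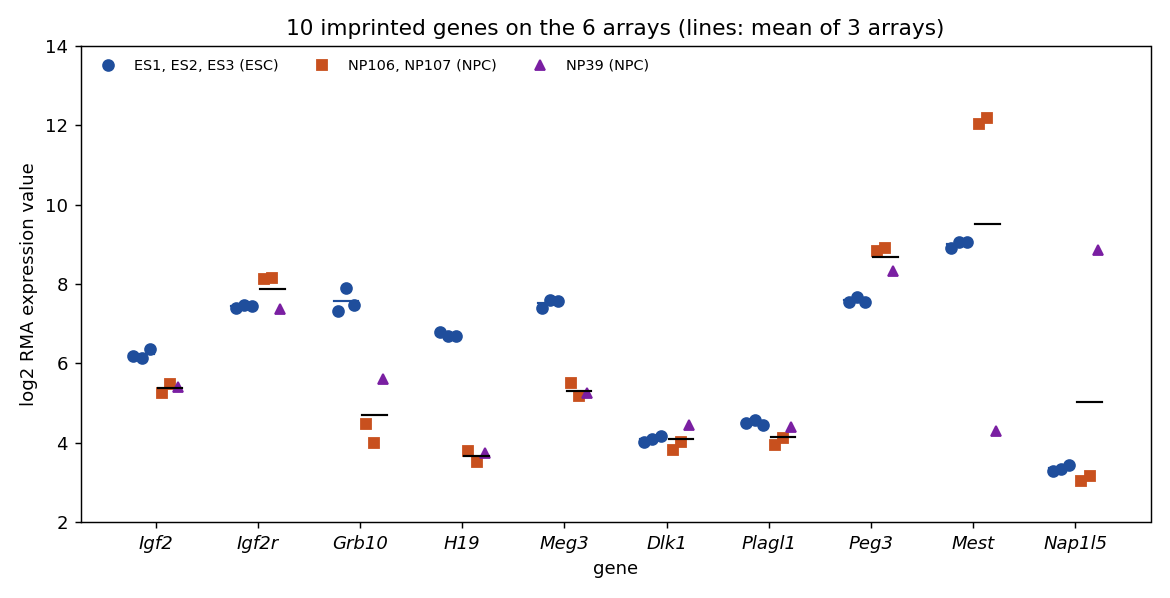
Log2 RMA expression value (y axis) of the 10 imprinted genes (x axis) on each ESC array (blue circles), on NP106 and NP107 (orange squares) and on NP39 (purple triangles), with a line at the mean of the 3 arrays of a cell type. The ESC arrays of H19 spanned 6.68 to 6.78 and its NPC arrays 3.52 to 3.78, while the NPC arrays of Mest and Nap1l5 fell on either side of the ESC arrays.

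The labels of the arrays were set beside marker genes that could be named. Pou5f1, which encodes the pluripotency factor OCT4, averaged 12.44 ± 0.02 in ESCs and 3.70 ± 0.11 in NPCs on the log2 scale (SD, n = 3 arrays each). Of 7 NPC markers 5 had a name (Nes, Fabp7, Slc1a3, Olig2 and Ptprz1), and each of them was higher in all NPC arrays than in any ESC array. These 5 names came from part of a table of the study that starts with the genes highest in NPCs, so that their direction is no check of the labels. Across genes, which are not independent replicates, the correlation of NP106 with NP107 was 0.997, while that of NP39 with either was 0.978 to 0.979. None of 7 fibroblast markers had a name here, so cells of that type were not assessed.

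Igf2 (ENSMUSG00000048583_at) encodes insulin-like growth factor 2, the growth factor of the group, which is expressed from the paternal copy. Its log2 values were 6.19, 6.14 and 6.38 in ES1, ES2 and ES3, and 5.26, 5.47 and 5.40 in NP106, NP107 and NP39. All NPC arrays were below all ESC arrays, and NP39 lay between the other NPC arrays. The means were 6.24 ± 0.12 (SD, n = 3 arrays) in ESCs and 5.38 ± 0.11 in NPCs, a difference of -0.86 on the log2 scale.

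H19 (ENSMUSG00000000031_at) is a noncoding RNA from the maternal copy of the same domain, where a methylated control region lets either H19 or Igf2 use shared enhancers. In the RefSeq gene table (GRCm38.p6) 1 other gene model lies between H19 and Igf2 on chromosome 7. H19 read 6.78, 6.70 and 6.68 in the ESC arrays and 3.78, 3.52 and 3.74 in NP106, NP107 and NP39. The ESC arrays spanned only 0.10 and the NPC arrays 0.27, with a wide gap between the groups. The means of 6.72 ± 0.05 (SD, n = 3 arrays) and 3.68 ± 0.14 differ by -3.04 on the log2 scale, or 8.24-fold. The NPC values lie below the lower quartile of the arrays (3.92 to 4.08) and detection calls were not used here, so the size of this fold depends on weak values. By rank among all genes of an array, H19 lay at percentiles 62.0 to 63.3 in ESCs and 16.3 to 22.3 in NPCs. Both genes of the domain were thus lower in NPCs, H19 by more than Igf2.

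Igf2r (ENSMUSG00000023830_at) encodes the receptor that takes up IGF2 and delivers it to lysosomes, and is known as a maternally expressed gene outside the brain. Its values were 7.40, 7.48 and 7.44 in ESCs, 8.12 in NP106 and 8.16 in NP107, but 7.37 in NP39. NP106 and NP107 were above all ESC arrays, by 1.63-fold on average, while NP39 was slightly below all of them. The mean difference of 0.44 on the log2 scale (ESC SD 0.04, NPC SD 0.45, n = 3 arrays each) was under the 1.5-fold threshold, and the gene was called higher when NP39 was left out (difference 0.70). Airn, a noncoding RNA that overlaps Igf2r and is known to silence its paternal copy, read 5.83, 5.51 and 4.82 in NP106, NP107 and NP39 against 3.92, 3.78 and 4.10 in ESCs. Within the NPC arrays NP39 was lowest for both genes, with a gap to the mean of NP106 and NP107 of -0.77 for Igf2r and -0.85 for Airn. Whether the probes of each gene read only its own strand is not given in the sources used here.

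Grb10 (ENSMUSG00000020176_at) encodes an adaptor that binds insulin and IGF receptors and restrains their signal. It is expressed from the maternal copy in most tissues and from the paternal copy in neurons. The ESC arrays read 7.31, 7.91 and 7.47, NP106 read 4.48, NP107 read 3.99 and NP39 read 5.60. Every NPC array was below every ESC array, but NP39 was 2.57-fold higher than the mean of the other NPC arrays. The mean difference was -2.88 on the log2 scale (ESC SD 0.31, NPC SD 0.82, n = 3 arrays each), -3.33 in NP106 and NP107 and -1.97 in NP39. The NP107 value lay near the lower quartile of the arrays (3.92 to 4.08). Detection calls were not used here, so the size of these differences depends in part on weak values. Grb10 had the widest spread among the ESC arrays of the 10 genes, with a range of 0.60 against 0.07 for Igf2r, the narrowest.

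Meg3 and Dlk1 belong to 1 imprinted domain on chromosome 12, with 2 other gene models of the RefSeq table between them. Meg3 (ENSMUSG00000021268_at) is a maternally expressed noncoding RNA, and loss of its expression is a known defect of some ESC and iPSC lines. Its values were 7.40, 7.61 and 7.57 in ESCs and 5.50, 5.18 and 5.26 in NP106, NP107 and NP39. The NPC arrays lay close together and all below the ESC arrays, with a difference of means of -2.22 on the log2 scale (ESC SD 0.11, NPC SD 0.17, n = 3 arrays each), or 4.65-fold. Dlk1 (ENSMUSG00000040856_at) encodes a transmembrane relative of the Notch ligands and is expressed from the paternal copy. It read 4.01, 4.10 and 4.18 in ESCs and 3.81, 4.03 and 4.44 in NP106, NP107 and NP39, so the groups overlapped. The means of Dlk1 differed by -0.003, and that small difference had the other sign when arrays were centred on their medians (0.15) or quantile normalized (0.10). These values are near the lower quartile of the arrays, which lay between 3.92 and 4.08, and detection calls were not used here, so they do not set whether the transcript was present.

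Plagl1 and Peg3 encode zinc finger proteins and are both expressed from the paternal copy. Plagl1 (ENSMUSG00000019817_at), a growth-restraining transcription factor known to act on other imprinted genes, read 4.51, 4.58 and 4.44 in ESCs and 3.94, 4.13 and 4.41 in NP106, NP107 and NP39. All NPC arrays were below all ESC arrays, NP39 only just, and the mean difference of -0.35 on the log2 scale was not called. The margin between NP39 and ES3 is smaller than that between the medians of these arrays (5.59 and 5.76), so the lack of overlap depends on the scaling. Overlap was counted on the deposited scale only. The NP106 value lies near the lower quartile of the arrays (3.92 to 4.08), and detection calls were not used here. Peg3 (ENSMUSG00000002265_at), a gene known for roles in maternal behaviour and in the response to p53, read 7.56, 7.68 and 7.55 in ESCs and 8.83, 8.90 and 8.32 in NP106, NP107 and NP39. Every NPC array was above every ESC array, with NP39 the lowest of the NPC arrays. Peg3 was the only gene of the 10 called higher in NPCs, with a difference of 1.09 on the log2 scale (ESC SD 0.07, NPC SD 0.32, n = 3 arrays each). With Plagl1, 5 of the 10 genes had all NPC arrays below all ESC arrays, where 32.6% of all genes did, and 1, Peg3, had all above, where 26.1% did. The 6 genes without overlap stand beside 58.7% of all genes, and nothing is read from that count, since the contrast was known when the genes were chosen.

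Mest and Nap1l5, which split the NPC arrays, are both paternally expressed genes on mouse chromosome 6, far apart with 695 gene models of the RefSeq table between them. Mest (ENSMUSG00000051855_at) encodes a protein of the alpha/beta hydrolase fold family that marks mesodermal tissue in the embryo. Nap1l5 (ENSMUSG00000055430_at) encodes a relative of nucleosome assembly proteins that is found mainly in brain, and it is a gene without introns that lies inside Herc3. Their promoters are shown because the genes took opposite levels in cultures of 1 cell type. The sequences are RefSeq windows of build GRCm38.p6, 250 bases up to the start, 5′ to 3′, with CpG dinucleotides, the sites of DNA methylation, in capitals. The Mest window is chr6:30737800-30738049 on the plus strand, 1 of 3 in the table for this gene, and the Nap1l5 window is chr6:58907127-58907376 on the minus strand.
Mest: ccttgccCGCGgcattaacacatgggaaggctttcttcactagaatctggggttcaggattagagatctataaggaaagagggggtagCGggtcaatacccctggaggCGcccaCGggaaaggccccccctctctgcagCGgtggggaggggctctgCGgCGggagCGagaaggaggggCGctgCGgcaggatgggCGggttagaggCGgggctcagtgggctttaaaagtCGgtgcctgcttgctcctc
Nap1l5: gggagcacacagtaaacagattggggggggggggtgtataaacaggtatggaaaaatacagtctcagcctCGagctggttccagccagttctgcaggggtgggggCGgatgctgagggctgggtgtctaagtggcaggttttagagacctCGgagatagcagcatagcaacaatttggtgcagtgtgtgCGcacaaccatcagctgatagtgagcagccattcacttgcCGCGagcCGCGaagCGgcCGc
The Mest window holds 14 CpG dinucleotides and the Nap1l5 window 10, against a median of 6 over 32851 windows. Of the Mest windows not shown, the one that overlaps this window also holds 14, and the separate one holds 7. Methylation was not measured in these arrays.

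Mest had log2 values of 8.91, 9.07 and 9.05 in ESCs, 12.04 in NP106, 12.18 in NP107 and 4.30 in NP39. In NP106 and NP107 it was 8.57-fold above the ESC mean, and in NP39 it was 26.2-fold below it. The ESC arrays sat between the NPC arrays and spanned 0.15. Set against the mean of NP106 and NP107, NP39 had a gap of -7.81 on the log2 scale, or 225-fold. The NP39 value lay at percentile 31.8 of its array, not far above the lower quartile of the arrays (3.92 to 4.08). Detection calls were not used here, so the folds that involve NP39 depend on a weak value. Of all 17144 genes Mest had the lowest value of NP39 against NP106 and NP107 and the largest SD among the NPC arrays, 4.51. Mest was chosen with its NPC values in view, and both ranks come from its NP39 value, so nothing is read from them. Its mean difference between the cell types, 0.50, describes none of the NPC arrays and was not called, and it was called higher when NP39 was left out (3.10).

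Nap1l5 read 3.30, 3.34 and 3.45 in ESCs, 3.03 in NP106, 3.18 in NP107 and 8.85 in NP39. The ESC arrays, NP106 and NP107 lay at percentiles 5.75 to 12.9 of their arrays, and NP39 at 88.2. NP39 was 53.9-fold above the mean of the other NPC arrays and 44.9-fold above the ESC mean on the RMA scale. Whether Nap1l5 was detected in the other arrays was not assessed, so these folds depend on weak values. Its gap of 5.75 on the log2 scale was the third highest of all genes, which repeats what the gene was chosen for. The mean difference between the cell types was 1.65 and turned to -0.26 without NP39, and it was not called. In NP39, Mest was therefore far below every other array, and Nap1l5 far above every other array.

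NP39 was compared with NP106 and NP107 for each of the 10 genes. With a gap over 1 on the log2 scale counted, NP39 was higher at Nap1l5 and Grb10 and lower at Mest, 3 of the 10 genes, where 4.00% of all genes passed (2.20% higher and 1.80% lower). Nap1l5 was chosen for this pattern, and nothing is read from the count. No gene of the 10 differed by over 1 between NP106 and NP107, and 7 of the 17144 genes did. At Igf2, H19 and Meg3 the gap was between -0.08 and 0.09, and the NPC arrays of these genes lay close together. The median SD among NPC arrays was 0.32 for the 10 genes and 0.14 for all genes, and among ESC arrays 0.08 and 0.09. The genes were chosen with their NPC values in view, so nothing is read from these medians either. A gap of 1 array from the other 2 has no test.

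**Figure D2:**
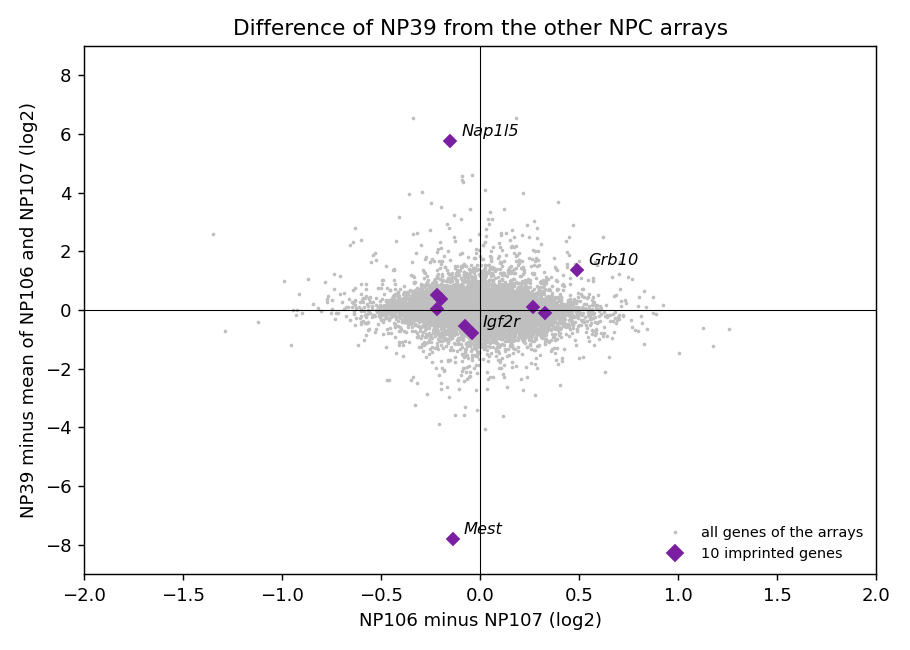
Difference of NP39 from the mean of NP106 and NP107 (y axis, log2) against the difference of NP106 from NP107 (x axis, log2) for all genes (grey points) and the 10 imprinted genes (purple diamonds). Mest lies at -7.81, below every other gene, and Nap1l5 at 5.75, and all 10 genes lie within 0.49 of 0 on the x axis.

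Other genes differed in NP39 as well. The neuron markers that could be named, 2 of 6, were lower in NP39: Syt1 read 6.93 and 7.02 in NP106 and NP107 and 4.90 in NP39, and Dcx read 4.86, 5.06 and 3.76. The Dcx value in NP39 lies below the lower quartile of the arrays (3.92 to 4.08), and detection calls were not used here. The 1 astrocyte marker of 4 with a name, S100b, read 6.32 and 6.13 in NP106 and NP107 and 7.02 in NP39, and the 1 oligodendrocyte marker of 5, Cnp, read 7.13, 7.29 and 7.06. Of the 5 named NPC markers 4 were higher in NP39 than in NP106 and NP107, with gaps to their mean of 1.10 for Slc1a3, 0.72 for Fabp7, 0.65 for Olig2 and 0.64 for Ptprz1, and the gap of Nes was -0.07. The share of all genes higher in NP39 than in both other NPC arrays was not computed. These markers had a name only through the table that starts with the genes highest in NPCs, and nothing is read from this count. Slc1a3, a glutamate transporter of radial glia and astrocytes, read 8.66 and 8.72 in NP106 and NP107 and 9.80 in NP39. Whether NP39 differed in cell makeup was not tested, nor was any part of cell makeup in the values of Mest, Nap1l5 and Grb10. In bulk RNA, fewer cells with a transcript and less transcript per cell cannot be told apart. The named genes whose profile over the 6 arrays lay nearest to that of Nap1l5 were Areg, Gria3 and Chac1, with root mean square differences of 0.70, 0.77 and 0.81 on the log2 scale after centring. Areg, a ligand of the EGF receptor, read between 3.43 and 3.45 in ESCs, 2.88 and 3.23 in NP106 and NP107, and 7.01 in NP39.

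Direction was also counted by the parental copy that is known to be expressed in most tissues. For Grb10 and Igf2r that copy is not a given in neural cells, as stated above. The arrays do not tell the copies apart, so which copy was expressed in these cells was not measured. Of the 4 maternally expressed genes 3 were called lower in NPCs (Grb10, H19 and Meg3), and the exception was Igf2r. Of the 6 paternally expressed genes 1 was called lower (Igf2), 1 was called higher (Peg3), and Dlk1, Plagl1, Mest and Nap1l5 were not called. Of all genes 18.7% were called lower and 15.4% higher. These counts are small, come from the contrast that was known when the genes were chosen, and nothing is read from them.

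Of 51 other imprinted genes on a list fixed for this work, 12 could be named on the arrays, and all 12 were higher in NPCs. That direction is not a result, because names came from the same part of the study's table, and the remaining genes of the list were not analysed here. Their values are given as a description, with no test, and do not show how imprinted genes in general differed. Peg12, an intronless paternally expressed gene of the Prader-Willi region, read 3.45, 3.06 and 2.93 in ESCs and 6.96, 6.60 and 6.50 in NP106, NP107 and NP39. The means differed by 3.54 on the log2 scale (ESC SD 0.27, NPC SD 0.24, n = 3 arrays each), the most of the 12. The ESC values of Peg12 lie below the lower quartile of the arrays (3.92 to 4.08) and detection calls were not used here, so this size depends on weak values. Mkrn3, a ubiquitin ligase gene of the same region, was higher by 1.18. Nnat, a paternally expressed membrane protein gene of the developing brain, was higher by 2.71 (ESC SD 0.21, NPC SD 0.22, n = 3 arrays each). Sgce and Peg10, neighbours transcribed from opposite strands of a shared promoter region on the paternal copy, were higher by 2.33 and 0.93. None of the 12 had NP39 more than 1 from the mean of NP106 and NP107, where 4.00% of all genes did, and nothing is read from this count. The widest gap was that of Airn, -0.85.

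**Figure D3:**
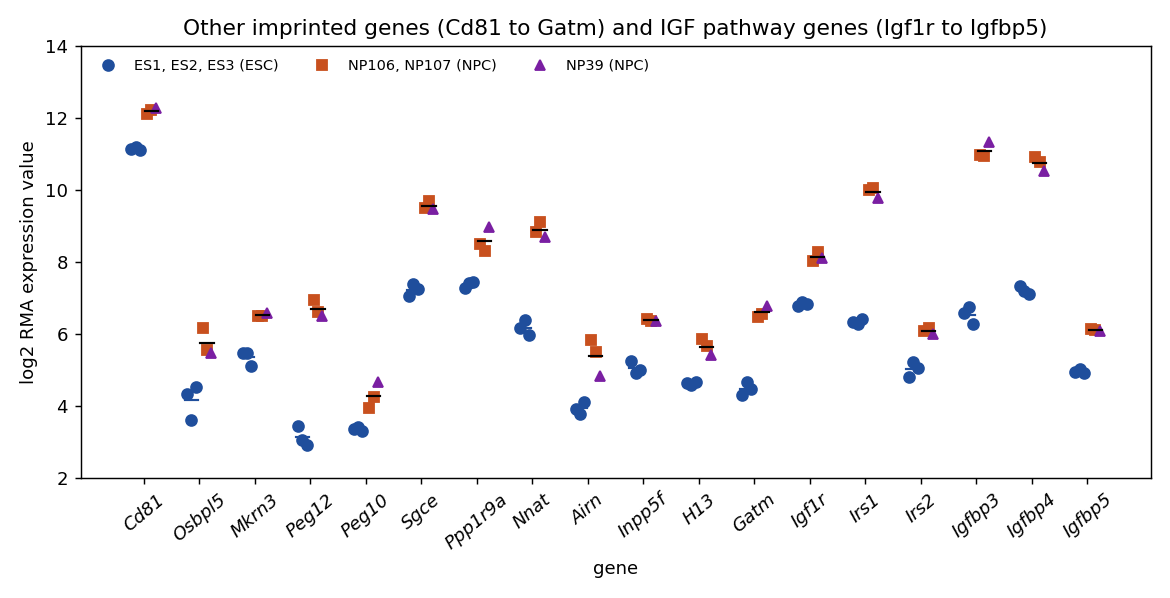
Log2 RMA expression value (y axis) of the 12 other imprinted genes and 6 IGF pathway genes that could be named (x axis), drawn per array as for the 10 genes, with a line at each mean. NPC arrays lie above all ESC arrays for each gene, a direction set by the table that supplied the names. NP39 (triangles) lies within 1 of the mean of NP106 and NP107 for each gene, the widest gap being -0.85 for Airn.

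Among 14 genes of the IGF pathway 6 could be named in the same way and all 6 were higher in NPCs, with the same limit on direction, and the others were not analysed here. Igf1r, the receptor through which IGF2 signals, read 6.79, 6.88 and 6.83 in ESCs and 8.04, 8.27 and 8.10 in NPCs, a difference of 1.30 on the log2 scale (ESC SD 0.04, NPC SD 0.12, n = 3 arrays each). Irs1, an adaptor downstream of that receptor, was higher by 3.60, and Irs2 by 1.05. The binding proteins Igfbp3, Igfbp4 and Igfbp5, which hold IGFs outside cells, were higher by 4.55, 3.52 and 1.15.

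Several of the genes also carry microRNAs within their span, which the arrays did not measure. Those of H19 and Meg3, which were lower in all NPC arrays, and of Mest, which split them, are shown from RefSeq (GRCm38.p6), 5′ to 3′, with the seed, the bases that pair with targets, in capitals. That of Meg3 is at chr12:109563710-109563731 on the plus strand, that of H19 at chr7:142577112-142577133 on the minus strand and that of Mest at chr6:30741314-30741336 on the plus strand, and no seed is shared among them.
mmu-miR-675-5p in H19: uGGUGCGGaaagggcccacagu
mmu-miR-770-5p in Meg3: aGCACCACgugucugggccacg
mmu-miR-335-5p in Mest: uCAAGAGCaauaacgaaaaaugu
Igf2 also hosts a microRNA, mmu-miR-483, and no level of any microRNA was analysed.

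The promoter windows of the imprinted genes ranged widely in CpG content. RefSeq windows were matched for 9 of the 10 genes, all but H19, 16 windows in all. Their median was 10 CpG dinucleotides per 250 bases, against 6 over all 32851 windows, and the range ran from 0 in a Meg3 window to 40 in a Grb10 window. The Igf2r window held 27 and the Plagl1 window 19, both above the upper quartile of 16 over all windows. The letters TGCCGC, or GCGGCA on the other strand, which the protein ZFP57 is known to bind at methylated imprinting control regions, occurred in 5 of the 16 windows. Those belonged to Mest (2 overlapping windows), Nap1l5, Meg3 and Plagl1, and 8.68% of all windows held the letters. The letters themselves hold a CpG, and the share over all windows was not matched for CpG content. A match of letters is a description and not a bound site.

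**Figure D4:**
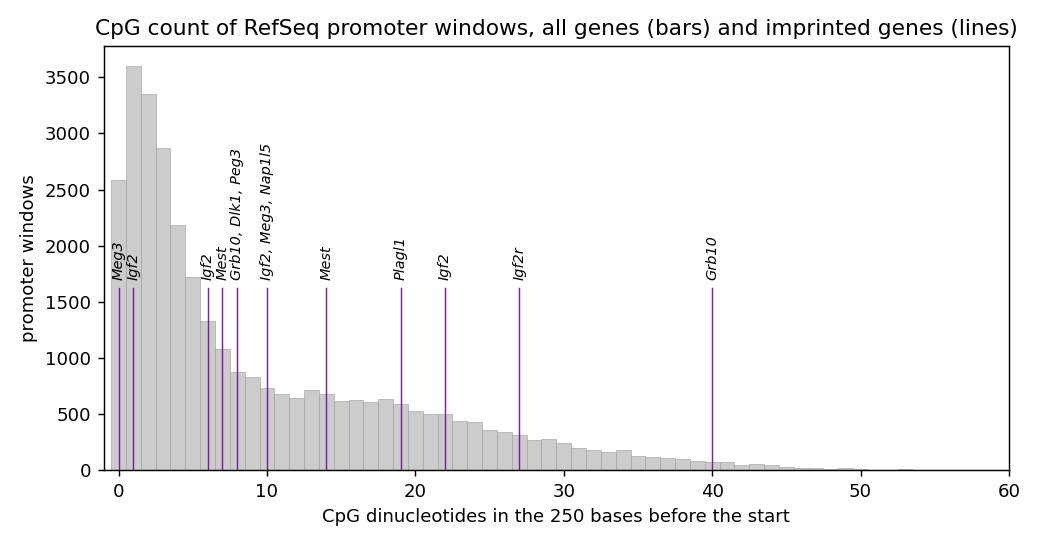
Number of RefSeq promoter windows (y axis) by count of CpG dinucleotides in the 250 bases before the start (x axis), with purple lines at the windows of the imprinted genes. Most windows of the 9 genes with a window (all but H19) lie above the overall median of 6, with Grb10 reaching 40, Igf2r 27 and the Nap1l5 window 10. The overlapping Mest windows, with 14 each, share a line.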

How the data were processed

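RNA from ESCs and NPCs was hybridized to Affymetrix mouse arrays, and the authors deposited log2 values made by RMA with an updated probe annotation (BrainCDF), 1 per Ensembl gene. The sources used here do not give its version or build. RMA corrects background and normalizes quantiles over the arrays, which compresses differences between weak signals. Of 17208 rows, 64 control probe sets were left out. Groups and replicate numbers came from the sample labels.

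All 6 arrays were fitted without covariates by lmFit and eBayes (limma 3.58.1, R 4.3.3), p was adjusted by Benjamini-Hochberg over 17144 genes, and calls used the thresholds of the methods (adjusted p under 0.05, over 1.5-fold); their moderated Welch test was an alternative. The test was checked on simulated data with independent normal noise, of the same SD in both cell types for each gene. No simulated array departed from its group as NP39 does, so that case was not checked. No filter was applied. The number of arrays limits the precision. Python 3.11.15 with pandas 2.3.3 was used for tables, and matplotlib 3.10.9 for plots.

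The imprinted genes and the gene lists were chosen with earlier results of these data known. Names of the 10 genes were taken with their identifiers, and those of Peg3 and Nap1l5 were also found by value. Other names came from rows of the study's tables with the same 6 values within 0.0001, which named 2004 genes. Columns of fold changes, test statistics and false discovery rates in those tables were not used. The genes named in the text are the 10, all listed genes with a name, and the 3 named genes nearest in profile to Nap1l5; of the markers and lists, examples are given. RefSeq promoter windows were matched by symbol for 9 of the 10 genes.

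Alternatives were the moderated Welch test, quantile normalization, median centring, a filter at the 25th percentile, a 2-fold threshold, the replicate number as a block, and each array left out in turn.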

Additional observations from a re-analysis of the deposited data

How the results depend on the processing

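Igf2, Grb10, H19, Meg3 and Peg3 were called in every alternative run, except that Igf2 (1.81-fold) was not called with a 2-fold threshold. Igf2r was also called, higher in NPCs, after median centring, which made 2 genes called higher in place of 1, where all genes gave 3302 in place of 2638. With each array left out in turn between 1 and 3 of the 10 genes were called higher, the 3 being Peg3, Igf2r and Mest without NP39 (NPC replicate 3), and 4 were called lower each time. Of all 17144 genes those runs called between 2490 and 2866 higher and between 3131 and 3333 lower. Nothing is read from the counts of the 10 genes. The sign of the mean difference turned for Mest, which lay between -0.84 and 3.10 with 1 array left out (-0.77 without NP106, -0.84 without NP107), for Nap1l5, which lay between -0.26 without NP39 and 2.65, and for Dlk1, which lay between -0.18 and 0.14. Grb10, Mest and Nap1l5 had NP39 more than 1 from the other NPC arrays under both scalings too, and with a gap of 1.5-fold there were 4 such genes. The share of all genes at that smaller gap was not computed, and nothing is read from this count.

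Among all genes 5851 were called, 2638 higher and 3213 lower. The 2-fold threshold left 3592 (1615 higher and 1977 lower), as a stricter threshold must. Median centring moved the median difference of all genes from -0.04 to 0.12 and the share of called genes that were higher from 45.1% to 55.6%. Deviations of same-numbered arrays from the means of their cell types correlated at 0.03, 0.01 and -0.006. These deviations come from means of 3 arrays, among which NP39 stands apart, so the values cannot settle whether arrays were paired. The labels give such arrays only a shared number. Blocking on that number gave 5867 called genes, with the same 5 of the 10 genes among them. No depth can be given for arrays, and 3 arrays per cell type limit each mean.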

Other observations

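Genes were also ranked by distance to the profile of Mest over the 6 arrays. This distance depends on the size of differences, and Mest had the largest SD among NPC arrays of all genes. A large distance therefore need not mean an unlike pattern. The nearest named genes, chosen after the values of Mest were seen, were Hoxc4, Foxd1 and Fndc3c1, with root mean square differences of 1.60, 1.62 and 1.76 on the log2 scale after centring. Hoxc4 was also the nearest of all genes. Hoxc4, a homeobox gene of posterior position, read 7.29 and 7.41 in NP106 and NP107 and 3.77 in NP39. Foxd1, a forkhead transcription factor gene, read 7.05 and 7.02 in NP106 and NP107 and 2.99 in NP39. In ESCs Hoxc4 read 3.94 to 4.39 and Foxd1 3.11 to 3.23, each near its own value in NP39, while the ESC arrays of Mest lay between its values in NP39 and in the other NPC arrays. The NP39 values of Hoxc4 and Foxd1 and the ESC values of Foxd1 lie below the lower quartile of the arrays (3.92 to 4.08). Detection calls were not used here, so nearness of such weak values does not show a shared level of expression. Among all 17144 genes 3 had NP39 over 5 above the mean of NP106 and NP107 on the log2 scale, Nap1l5 among them, and Mest was the only gene with NP39 over 5 below it. Nap1l5 and Mest were chosen with these values in view, and nothing is read from these counts.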
